A study of Mus musculus with 22 samples.

Results

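The genes of 10 hypothalamic neuropeptides outside the melanocortin system were followed across the cell labels and mice of an icv FGF1 experiment: Oxt (oxytocin), Avp (vasopressin), Pmch (melanin-concentrating hormone), Hcrt (hypocretin, also called orexin), Trh (thyrotropin-releasing hormone), Sst (somatostatin), Gal (galanin), Tac1 (substance P and neurokinin A), Vip (vasoactive intestinal peptide) and Adcyap1 (PACAP). They were taken by symbol, and all 10 had a row among the 20668 genes of the table of nuclei. All mice were male ob/ob animals of 11 weeks, which lack leptin and are obese and diabetic, and each mouse was 1 library. FGF1 mice had received 3 µg of FGF1 in a single intracerebroventricular (icv) injection, and control mice had received vehicle and were pair-fed. Nuclei from frozen hypothalamic punches were sequenced singly (snRNA-seq) for 3 FGF1 and 3 vehicle mice at Day 1 and for 2 FGF1 and 2 vehicle mice at Day 5, and whole cells of the mediobasal hypothalamus for another 6 FGF1 and 6 vehicle mice at Day 5. No lean mice and no freely fed controls were among the groups used here, so every value is from leptin-deficient mice and every comparison is against pair-feeding.

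Neuropeptides are cut from larger precursor proteins and released from dense-core vesicles, and while some precursors are made at a very high level by small groups of neurons, others are made more widely. Magnocellular and parvocellular neurons of the paraventricular and supraoptic nuclei make oxytocin, vasopressin and thyrotropin-releasing hormone, neurons of the lateral hypothalamus make melanin-concentrating hormone and hypocretin, and the suprachiasmatic nucleus holds neurons that make vasoactive intestinal peptide. Droplet methods also count free RNA from broken cells in the droplets of other cells.

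The table held 24965 nuclei, of which 19416 carried one of 28 neuronal labels, 4889 a non-neuronal label and 660 were set aside by the authors as filtered. Neuron nuclei numbered 448 to 4256 per mouse, with a median of 1948.5 to 3816.5 unique molecular identifiers (UMIs, counted RNA molecules) each. In 638 nuclei the barcode was shared with a nucleus of another library. Summed CPM (a gene's counts over all counts of the same nuclei, scaled to a total of 1000000) of the neuron markers Snap25, Syt1, Rbfox3 and Stmn2 were 3220 to 4070 in the neuron nuclei, against 45.9 to 168 for 4 astrocyte markers. The library Day 1 FGF1 replicate 1 stood apart: it had the lowest depth per neuron nucleus (1948.5 UMIs), the lowest sum of the paraventricular markers Sim1, Otp and Pou3f2 (59.0 CPM against 79.0 to 99.4 elsewhere), the highest sum of arcuate markers (1839 CPM against 276 to 1403) and the highest neuronal level of 7 of the 10 peptides. The low paraventricular sum came from Sim1 (38.6 CPM), while Otp (8.12 CPM) and Pou3f2 (12.2 CPM) lay within the range of the other mice. The high arcuate sum came from the peptide genes Agrp, Npy and Pomc (822, 823 and 133 CPM). Tbx3 (4.62 CPM) and Prlr (56.1 CPM) lay within the range of the other mice. The Day 1 fold changes of the 10 peptides in all neuron nuclei are given with and without this library, those of receptors and other peptides with it. The part of its differences from the other libraries in the results was not tested.

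Oxt (chr2:130576173-130577054, plus strand) and Avp (chr2:130580620-130582554, minus strand) point towards each other, 3565 bases apart, and of all pairs of the 10 peptides their levels went together most closely over labels (Pearson r = 0.690, 29 labels). Day 1 FGF1 replicate 1, the highest mouse in neurons for both genes, is among the mice behind that r, and no r without it was computed. The promoters of both, and that of Sst, are shown because these 3 of the 10 genes were lower in both FGF1 mice than in both vehicle mice at Day 5, as were 30.2% of all genes tested. Sst lies at chr16:23889573-23890958 on the minus strand. Each line gives the 250 bases before the RefSeq start in GRCm38.p6, on the gene's own strand from 5′ to 3′, with searched motifs in capitals. For Oxt (chr2:130575919-130576168, plus strand) the capitals mark TGACCT, a core of nuclear hormone receptor elements, and its reverse AGGTCA. For Avp (chr2:130582589-130582838, minus strand) they mark the E-box CACGTG, which clock transcription factors bind, and for Sst (chr16:23890845-23891094, minus strand) the cyclic AMP response element TGACGTCA, which CREB binds.
Oxt: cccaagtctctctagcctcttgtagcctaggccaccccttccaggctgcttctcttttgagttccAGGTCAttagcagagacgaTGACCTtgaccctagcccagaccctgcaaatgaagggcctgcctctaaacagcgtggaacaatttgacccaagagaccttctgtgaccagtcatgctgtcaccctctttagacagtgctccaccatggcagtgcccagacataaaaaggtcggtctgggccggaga
Avp: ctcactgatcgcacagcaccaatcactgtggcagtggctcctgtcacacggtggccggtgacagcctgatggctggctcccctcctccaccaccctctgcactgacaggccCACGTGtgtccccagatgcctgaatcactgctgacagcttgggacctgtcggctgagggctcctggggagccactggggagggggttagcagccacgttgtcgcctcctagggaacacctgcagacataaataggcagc
Sst: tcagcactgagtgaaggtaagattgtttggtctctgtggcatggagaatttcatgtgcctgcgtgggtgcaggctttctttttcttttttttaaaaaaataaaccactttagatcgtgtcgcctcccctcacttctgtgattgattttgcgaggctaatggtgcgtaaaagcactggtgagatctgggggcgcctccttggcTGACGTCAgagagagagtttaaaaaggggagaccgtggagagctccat
The E-box began 139 bases before the start of Avp and 61 bases before that of Tac1, the cyclic AMP element 48 bases before the start of Sst, and TGACCT 166 bases before the start of Oxt and 57 bases before that of Trh. Of 32851 promoter windows of the same length, 6.021% held CACGTG, 1.546% held TGACGTCA and 14.024% held TGACCT or AGGTCA, on either strand. The windows of Pmch, Hcrt, Gal, Vip and Adcyap1 held none of these letters. The RefSeq starts of Sst and Tac1 lie inside the gene spans given here, which come from another annotation, so their windows overlap those spans. Adcyap1 had a second window as well, chr17:93198918-93199167, which overlaps its span in the same way.

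Each peptide was looked for in the deposited labels, which name published neuron types (with n and a number), other glutamatergic (Glu) and GABAergic (GABA) types and non-neuronal cells. Of the neuron nuclei 11986 were left unmapped. Levels are CPM of a label's nuclei summed per mouse, as mean ± SD over mice with at least 10 nuclei of that label, in the 29 labels with at least 50 nuclei. The labels were made from all genes, these 10 among them, so the levels are a description without a test, and they compare labels for 1 gene and not genes with each other. A clear carrier, in which every mouse lay above every mouse of any other label, was found for Sst and Pmch.

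**Figure D1:**
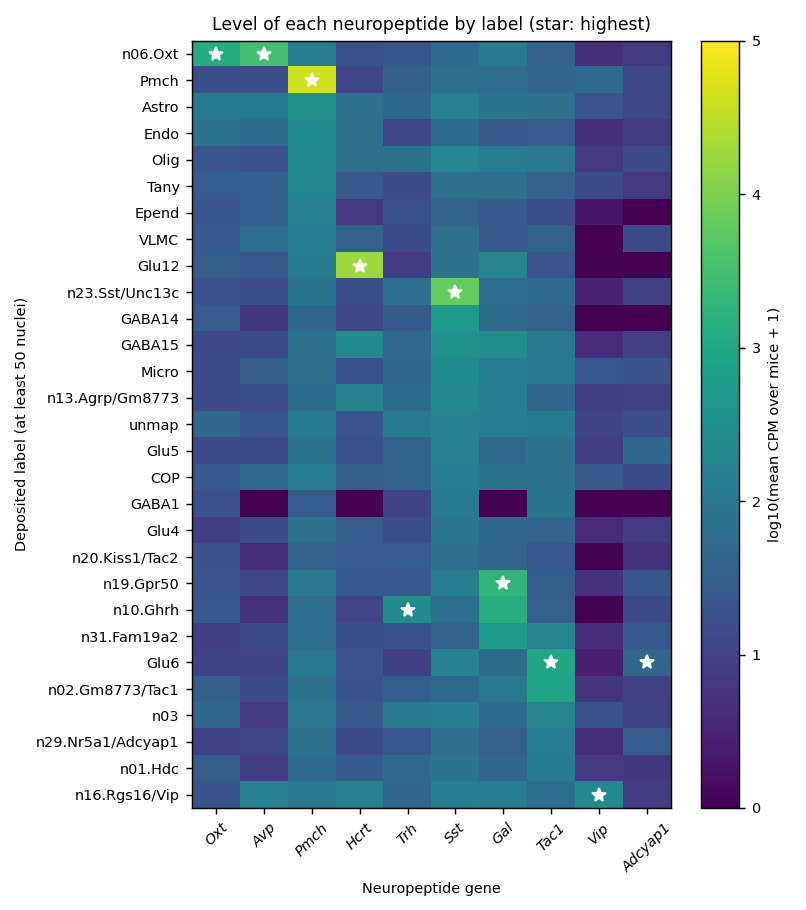
Level of each neuropeptide gene (columns) in each deposited label with at least 50 nuclei (rows), as log10 of the mean CPM over mice plus 1, with a star on the highest label of each gene. Pmch, Hcrt and Sst each have a single bright label (Pmch, Glu12 and n23.Sst/Unc13c), Oxt and Avp share n06.Oxt, and the mean of Pmch in the non-neuronal labels ran from 71.2 to 353 CPM.

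Oxt, whose product drives uterine and milk-duct contraction and restrains feeding, was highest in n06.Oxt at 1257 ± 3057 CPM (SD, n = 9 mice). The range over mice ran from 9.41 to 9346 CPM and overlapped that of astrocytes (0 to 695 CPM), the next label. The highest value came from Day 1 FGF1 replicate 1, and without that mouse the n06.Oxt mean was 246 ± 407 CPM (SD, n = 8). Most Oxt RNA lay outside that label: 55.7% of all Oxt UMIs in neurons were in unmapped nuclei and 26.2% in n06.Oxt. The label Glu14, with 21 nuclei too small to enter the ranking, held a further 9.49% of the Oxt UMIs, and 15 of its 21 nuclei had 3 or more. Of the n06.Oxt nuclei, 9.97% had 3 or more Oxt UMIs and 33.6% had 3 or more Avp UMIs, where the shares in nuclei of astrocytes, tanycytes and ependymal cells were 3.75% and 3.15%.

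Avp, the antidiuretic hormone and a peptide of the clock neurons, was also highest in n06.Oxt, at 3161 ± 8195 CPM (SD, n = 9), and at 430 ± 269 CPM (SD, n = 8) without Day 1 FGF1 replicate 1. That label held 60.8% of the Avp UMIs of all neurons. The next label was n16.Rgs16/Vip at 167 ± 452 CPM (SD, n = 10), with a range of 0 to 1453 CPM that overlapped the range of 97.3 to 25004 CPM in n06.Oxt. The highest value of both labels came from Day 1 FGF1 replicate 1, and the other mice of n16.Rgs16/Vip ran from 0 to 58.8 CPM. Of the 48 neuron nuclei with 10 or more Avp UMIs, 43 came from Day 1 FGF1 replicate 1, and of the 49 with 10 or more Oxt UMIs, 24 came from that mouse and 24 from Day 5 vehicle replicate 28. Of the 137 neuron nuclei with 3 or more Oxt UMIs, 9 (6.57%) also had 3 or more Avp UMIs, against 0.948% of all neurons, and 7 of these 9 were in Day 1 FGF1 replicate 1.

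Pmch (chr10:88091072-88092375, plus strand), whose product promotes feeding and sleep, had a clear carrier. All 79 nuclei of the label Pmch had 3 or more Pmch UMIs, and the level was 42705 ± 22395 CPM (SD, n = 3), from 16849 to 55963. That label held 61.2% of the Pmch UMIs in neurons. Astrocytes came next at 353 ± 326 CPM (SD, n = 10, highest mouse 993). The largest number of Pmch UMIs in a single nucleus, 716, was in an oligodendrocyte nucleus of Day 5 vehicle replicate 28, above the neuronal maximum of 505. Parpbp, which overlaps Pmch on the opposite strand, went with it over labels (Pearson r = 0.834, 29 labels) and was at 782 CPM in the label Pmch. Whether reads of one gene were counted for the other was not tested.

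Hcrt (chr11:100761069-100762931, minus strand), which sustains wakefulness and appetite, was highest in Glu12 at 17502 ± 19824 CPM (SD, n = 4), and at 9655 ± 14831 CPM (SD, n = 3) without Day 1 FGF1 replicate 1. That label held 66.3% of the neuronal Hcrt UMIs. Of the 83 Glu12 nuclei, 56.6% had 3 or more Hcrt UMIs. The lowest Glu12 mouse, at 619 CPM, lay below single mice of n13.Agrp/Gm8773 (1592 CPM), n16.Rgs16/Vip (1353 CPM) and GABA15 (1348 CPM). In these 3 labels 1, 2 and 1 nuclei had 3 or more Hcrt UMIs, and the highest single nucleus held 290, 283 and 129. Hcrt nuclei were few in every punch: 53 neuron nuclei had 10 or more UMIs, 23 of them in Day 1 FGF1 replicate 1, 13 in Day 1 vehicle replicate 2 and 10 in Day 5 vehicle replicate 28.

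The releasing and inhibiting hormones differed in how far a label captured them. Sst, which blocks growth hormone release, was at 6664 ± 2965 CPM (SD, n = 9) in n23.Sst/Unc13c, where 88.4% of the 327 nuclei had 3 or more UMIs. Its lowest mouse there, at 2793 CPM, was above the highest mouse of GABA14 (997 CPM) and GABA15 (1006 CPM), the next labels by mean, and of microglia (1178 CPM). Trh (chr6:92242061-92244650, minus strand), which drives the thyroid axis, had no clear carrier. It was highest in n10.Ghrh at 252 ± 176 CPM (SD, n = 6), a spread that covered the unmapped neurons at 105 ± 72.5 CPM (SD, n = 10), and 83.3% of its UMIs and 93 of the 104 nuclei with 10 or more were unmapped.

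Gal (chr19:3409915-3414544, minus strand), which is made beside growth hormone-releasing hormone in arcuate neurons and inhibits many of its targets, was highest in n19.Gpr50 at 1835 ± 778 CPM (SD, n = 5) and in n10.Ghrh at 1288 ± 873 CPM (SD, n = 6), values that did not differ beyond their spread. It followed in n31.Fam19a2 at 483 ± 467 CPM (SD, n = 7). Tac1 (chr6:7554879-7565834, plus strand), whose peptides excite through the neurokinin receptors, was at 916 ± 410 CPM (SD, n = 8) in Glu6 and at 822 ± 356 CPM (SD, n = 7) in n02.Gm8773/Tac1, again within their spread and both with a mean above n03 at 191 ± 165 CPM (SD, n = 5), although the lowest mice of Glu6 and n02.Gm8773/Tac1 (354 and 143 CPM) were below the highest n03 mouse (387 CPM).

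The last 2 genes encode relatives of secretin that act through shared receptors. Vip (chr10:5639218-5647617, plus strand), which couples suprachiasmatic clock neurons to each other, was at 238 ± 123 CPM (SD, n = 10) in n16.Rgs16/Vip, and that label held 52.8% of its neuronal UMIs. The lowest mouse there (101 CPM) was above every mouse of every other label except 1 astrocyte value of 106 CPM. Of the n16.Rgs16/Vip nuclei, 12.2% had 3 or more Vip UMIs. Adcyap1 (chr17:93199017-93206537, plus strand) was thin everywhere: no nucleus had more than 4 UMIs, and its levels in Glu6 (46.1 ± 25.4 CPM, SD, n = 8), Glu5 (45.8 ± 24.4 CPM, SD, n = 10) and n29.Nr5a1/Adcyap1 (27.8 ± 18.9 CPM, SD, n = 10) did not differ beyond their spread.

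Peptide RNA was also counted in nuclei labelled as glia. Doublets were not removed from the nuclei, and the source of these UMIs was not tested. In 2160 nuclei of the ventricular glia (astrocytes, tanycytes and ependymal cells), with a median depth of 2832.5 UMIs against 2621 in neurons, 40.3% had a Pmch UMI against 17.97% of neurons. The shares were 15.4% and 5.33% for Oxt, 14.3% and 5.71% for Avp and 14.1% and 4.78% for Hcrt. For these 4 peptides the pooled share in neurons was below that in glia, and a neuron with a single UMI of them could not be told from background. Mouse by mouse, the share was larger in glia in 10 of 10 mice for Pmch, 8 for Hcrt, 6 for Oxt and 5 for Avp. For the other peptides it was larger in glia in 6 mice for Sst, 5 for Vip, 4 each for Gal and Trh and 1 each for Tac1 and Adcyap1. Without Day 1 FGF1 replicate 1, an alternative chosen after seeing the data, the pooled shares in glia and neurons were 34.6% and 15.5% for Pmch, 7.09% and 2.69% for Hcrt, 6.18% and 2.20% for Oxt and 3.79% and 2.60% for Avp. Over all mice, the shares differed less for Sst (24.5% and 18.1%), Gal (17.5% and 15.5%), Trh (8.89% and 8.97%) and Vip (2.36% and 1.98%), and for Tac1 (15.5% and 19.4%) and Adcyap1 (2.96% and 5.70%) neurons had the larger share. For Sst, Gal and Vip the glial share was still the larger, so the limit on a single UMI holds for them too. The level in glia followed the mouse: the highest of 10 mice was Day 1 FGF1 replicate 1 for 3 peptides, Day 1 vehicle replicate 2 for 5 and Day 5 vehicle replicate 28 for 2.

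**Figure D2:**
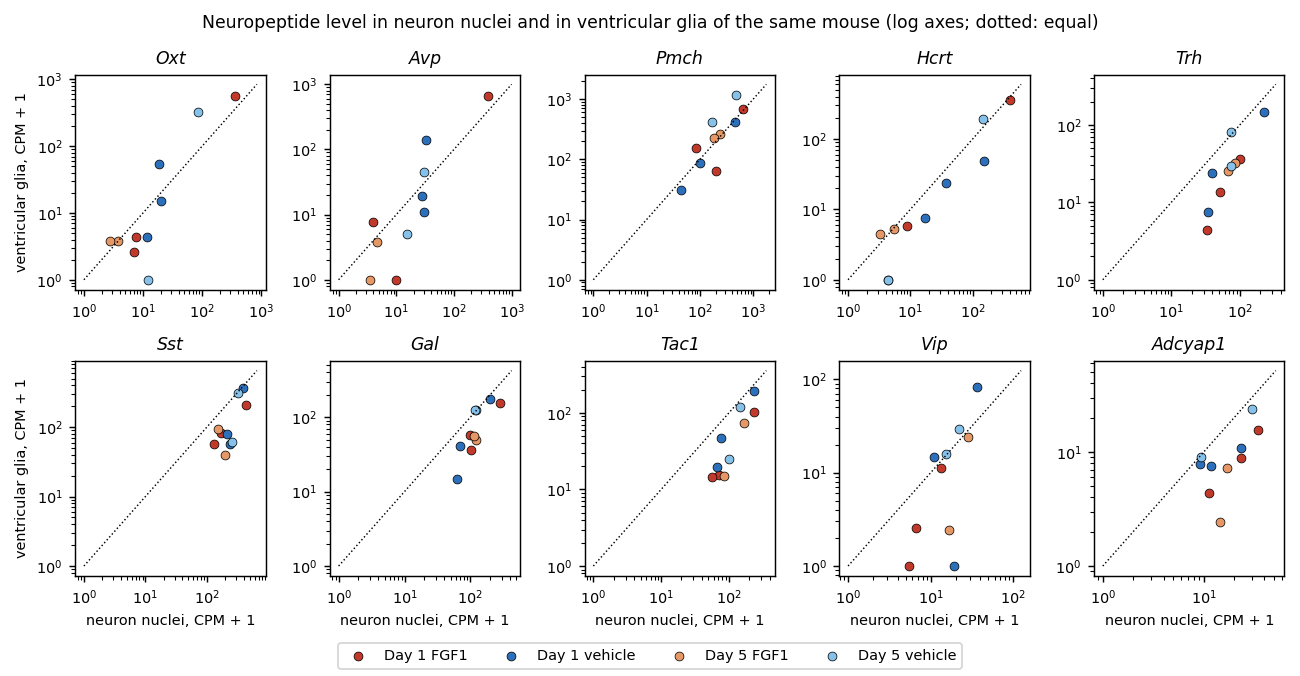
Level of each neuropeptide gene in neuron nuclei (x axis, CPM + 1) and in the ventricular glia of the same mouse (y axis, CPM + 1), on log axes, with 1 point per mouse coloured by group and a dotted line at equal levels. The 2 highest glial values of Oxt (562 and 324 CPM) and of Hcrt (355 and 190 CPM) are those of Day 1 FGF1 replicate 1 and Day 5 vehicle replicate 28.

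Whether FGF1 altered peptide RNA was tested on the counts of all neuron nuclei of a mouse, because most peptides lie partly in unmapped neurons, with edgeR's quasi-likelihood test and Benjamini-Hochberg adjustment over all genes. At Day 1 no peptide was called. None of the 14933 genes tested was called (0%), with 1226 at an unadjusted p under 0.05, and DESeq2 called 65 genes but none of the 10. At Day 5 none of the 10 was called and none of 16022 genes (0%), with 1614 at an unadjusted p under 0.05, while DESeq2 called 18 genes (0.112%), Avp among them. In these bulk sums fewer nuclei of a type and less RNA per nucleus cannot be told apart. Nuclei labelled n06.Oxt made up 0.820%, 1.83% and 0.798% of neuron nuclei after FGF1 at Day 1, against 3.40%, 2.47% and 2.52% after vehicle. At Day 5 they made up 1.37% and 0.987% after FGF1, against 1.95% and 2.90% after vehicle. The FGF1 mice were thus below the vehicle mice on both days, and the part of these shares in the sums of Oxt and Avp was not tested.

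**Figure D3:**
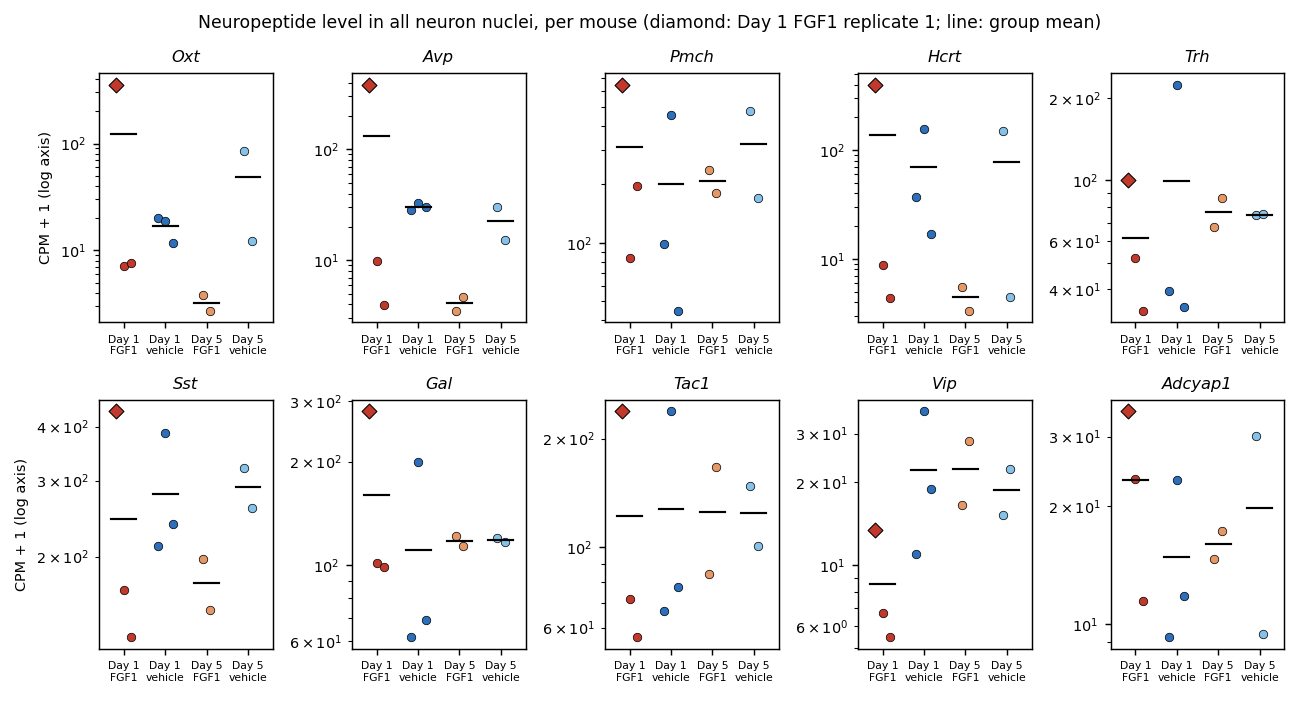
CPM + 1 (log axis) of each neuropeptide gene in all neuron nuclei, with 1 point per mouse in the 4 groups, a line at the group mean and a diamond for Day 1 FGF1 replicate 1. That mouse is the highest of its group in every panel, and at Day 5 both FGF1 mice lie below both vehicle mice for Oxt, Avp and Sst.

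Oxt at Day 1 was at 355, 6.15 and 6.70 CPM in FGF1 replicates 1 to 3 and at 19.1, 17.9 and 10.8 CPM in the vehicle mice. FGF1 replicate 1 was above and the other 2 below all vehicle mice, and the log2 fold change was 2.98 ± 1.42 (SE, edgeR adjusted p = 0.646) with replicate 1 and -1.30 ± 0.36 (edgeR adjusted p = 0.280) without it. At Day 5 the FGF1 mice were at 2.79 and 1.72 CPM (19 and 20 UMIs) and the vehicle mice at 84.9 and 11.4 CPM (700 and 23 UMIs). The highest single nucleus held 3 and 2 UMIs in the FGF1 mice and 8 in vehicle replicate 38, while 24 nuclei of vehicle replicate 28 held 10 or more. The groups did not overlap, and the log2 fold change was -4.51 ± 1.08 (SE, edgeR adjusted p = 0.490).

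Avp at Day 1 was at 383, 8.85 and 2.98 CPM after FGF1 and at 27.4, 31.9 and 29.0 CPM after vehicle, so that the vehicle mice were close together while FGF1 replicate 1 lay above and the other 2 below them. The log2 fold change was 2.21 ± 1.41 (SE, edgeR adjusted p = 0.729), and -2.15 ± 0.39 (edgeR adjusted p = 0.181) without replicate 1. At Day 5 Avp was at 2.50 and 3.69 CPM after FGF1 and at 29.1 and 14.3 CPM after vehicle, without overlap. The log2 fold change was -2.75 ± 0.41 (SE, edgeR adjusted p = 0.490), and DESeq2 gave an adjusted p of 0.000208. No neuron nucleus of the Day 5 FGF1 mice had 3 or more Avp UMIs, 0 of 1749 and 0 of 4256, which allow shares of up to 0.172% and 0.0705%, against a mean of 1.07% ± 0.25 (SD, n = 2) in the vehicle mice (exact permutation p = 0.333, the smallest that 2 against 2 mice allow).

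Sst differed less between mice. It was at 434, 166 and 129 CPM after FGF1 and at 211, 386 and 237 CPM after vehicle at Day 1, with replicate 1 above and the other 2 FGF1 mice below all vehicle mice. At Day 5 it was at 197 and 149 CPM after FGF1 and at 320 and 258 CPM after vehicle. These 2 groups did not overlap, and the log2 fold change was -0.65 ± 0.19 (SE, edgeR adjusted p = 0.490). At Day 1 the log2 fold change was -0.15 ± 0.46 (SE, edgeR adjusted p = 0.951), and -0.87 ± 0.27 (edgeR adjusted p = 0.354) without replicate 1.

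The 2 peptides of the lateral hypothalamus followed single mice. Hcrt was at 399, 7.80 and 3.35 CPM after FGF1 and at 36.4, 154 and 15.99 CPM after vehicle at Day 1, and at 4.56 and 2.32 CPM after FGF1 and at 149 and 3.46 CPM after vehicle at Day 5. The groups overlapped on both days, and the log2 fold changes were 1.05 ± 1.51 at Day 1 (SE, edgeR adjusted p = 0.885, and -3.47 ± 1.12 without replicate 1) and -4.58 ± 1.69 at Day 5 (SE, edgeR adjusted p = 0.492). Pmch was at 649, 82.4 and 196 CPM after FGF1 and at 97.4, 455 and 43.7 CPM after vehicle at Day 1, and at 235 and 180 CPM against 476 and 168 CPM at Day 5. Its groups overlapped as well, with log2 fold changes of 0.69 ± 0.94 and -0.58 ± 0.54 (SE, edgeR adjusted p = 0.879 and 0.716), and of -0.49 at Day 1 without replicate 1.

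For Vip the vehicle group was the higher at Day 1. Its levels were 12.4, 5.70 and 4.46 CPM after FGF1 and 9.94, 35.3 and 17.9 CPM after vehicle, groups that overlapped through replicate 1, and at Day 5 they were 15.6 and 27.2 CPM against 14.2 and 21.2 CPM. The log2 fold change was -1.39 ± 0.53 at Day 1 (SE, edgeR adjusted p = 0.566, and -1.98 without replicate 1) and 0.46 ± 0.32 at Day 5 (SE, edgeR adjusted p = 0.603). Nuclei with 3 or more Vip UMIs made up 0.233% ± 0.088 of neurons after FGF1 and 0.952% ± 0.522 after vehicle at Day 1 (SD, n = 3), and the exact permutation p of 0.1 is the smallest that 3 against 3 mice allow. With every nucleus thinned to 1000 UMIs the shares were 0.0166% and 0.237% (exact permutation p = 0.4). The label n16.Rgs16/Vip made up 1.99%, 2.97% and 2.74% of neuron nuclei after FGF1 at Day 1, against 4.47%, 5.00% and 5.52% after vehicle. At Day 5 it made up 3.49% and 2.37% after FGF1, against 3.62% and 3.79% after vehicle. Other labels, n06.Oxt among them, were likewise a smaller share after FGF1. The part of the size of n16.Rgs16/Vip in the Vip values was not tested.

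The remaining 4 genes overlapped between groups on both days. Trh was at 99.1, 51.0 and 32.4 CPM after FGF1 and at 38.3, 223 and 33.6 CPM after vehicle at Day 1, and Tac1 at 238, 70.8 and 55.4 CPM and at 65.7, 238 and 76.7 CPM. Vehicle replicate 2 was the highest mouse of both, for Tac1 by a small margin. Gal was at 280, 101 and 97.5 CPM after FGF1 and at 60.6, 199 and 68.2 CPM after vehicle, and Adcyap1 at 33.9, 22.4 and 10.4 CPM and at 8.24, 22.3 and 10.8 CPM. At Day 5 the levels of Gal were nearly alike in all 4 mice, from 113 to 121 CPM, and those of Trh ran from 66.4 to 85.3 CPM, of Tac1 from 83.6 to 166 CPM and of Adcyap1 from 8.39 to 29.1 CPM. Their log2 fold changes were -0.63, -0.01, 0.59 and 0.75 for Trh, Tac1, Gal and Adcyap1 at Day 1 and 0.14, 0.10, 0.09 and -0.38 at Day 5, with SE of 0.15 to 0.74. Without Day 1 FGF1 replicate 1 the Day 1 values were -1.18, -0.96, -0.10 and 0.31.

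Counted over all 10, no peptide separated the groups at Day 1, where 8.34% of all genes tested were lower in every FGF1 mouse than in every vehicle mouse and 5.69% higher. Without FGF1 replicate 1 the groups separated for Oxt, Avp, Sst, Vip and Hcrt, all lower after FGF1, against 16.8% of genes that were lower by the same measure. The 3 that separated at Day 5, Oxt, Avp and Sst, compare with 30.2% of genes lower by the same measure (14% higher), so that the share of 3 in 10 was close to that of genes at large. Over both days together and without Day 1 FGF1 replicate 1, the 4 FGF1 mice were below all 5 vehicle mice for these same 3 genes, against 4.07% of genes (1.26% were above). The mouse left out had been singled out in part for its high levels of these peptides, so the counts without it, here and by batch, are not on a par with those shares of genes, and nothing is read from them. At Day 5, leaving out vehicle replicate 38 gave calls for Oxt, Avp, Sst, Pmch and Hcrt (2.12% of genes called) and leaving out vehicle replicate 28 gave calls for Oxt and Avp (2.95%), in fits where the lone vehicle mouse is assumed to vary like the FGF1 mice.

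The deposited annotation gives 5 batches, each with 1 FGF1 and 1 vehicle mouse, so that mice could be compared within a batch. In the 4 batches other than batch 3, which holds Day 1 FGF1 replicate 1, the FGF1 mouse was the lower for Oxt, Avp, Sst and Hcrt every time, as it was for 16.1% of all genes. In all 5 batches it was lower for none of the 10, against 7.31% of genes. The log2 ratios of Avp were -1.63, -3.42, -3.54 and -1.96 in batches 4, 5, 1 and 2 and 3.72 in batch 3, and those of Oxt were -1.64, -1.42, -4.93 and -2.73 and 5.04. Batch 3 thus had the opposite sign for both hormones, with Pmch at 3.89 and Hcrt at 4.64. A fit over both days with batch as a term, chosen after seeing the data, gave log2 fold changes of -1.47 ± 1.02 for Avp, -1.47 ± 1.29 for Oxt, -0.45 ± 0.30 for Sst and -2.27 ± 1.52 for Hcrt (SE, edgeR adjusted p from 0.659 to 0.740) and called none of the 10 and 0.00651% of genes. Without Day 1 FGF1 replicate 1 that fit gave -2.43 for Avp (edgeR adjusted p = 0.0482), in which 0.180% of genes were called. That mouse had been singled out in part for its high levels of these peptides, Avp among them, so nothing is read from this p. Leaving out vehicle replicate 3, its partner in batch 3, takes that batch out of the contrast in the same way, so its -2.43 (edgeR adjusted p = 0.0251, 0.289% of genes called) is no second check.

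**Figure D4:**
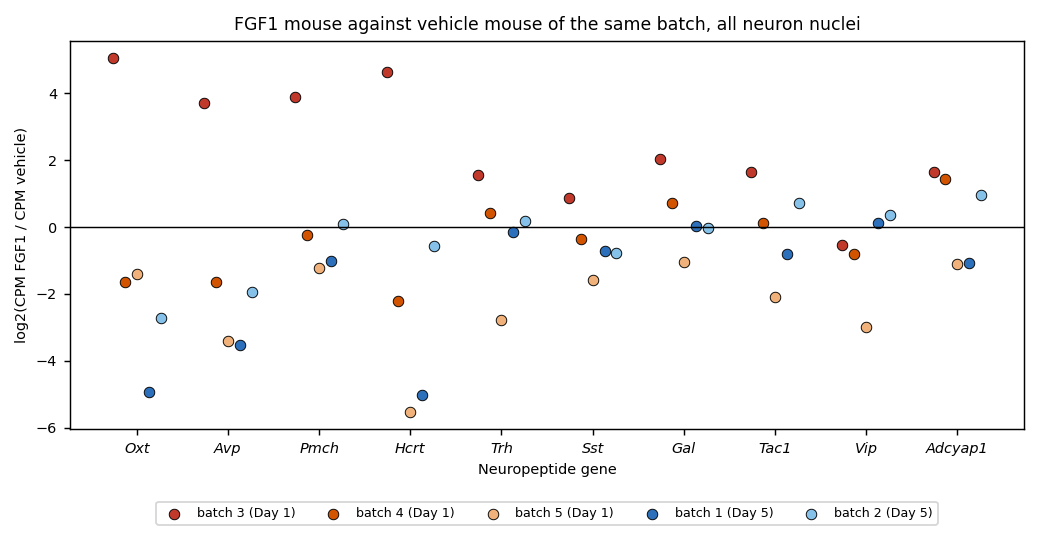
Log2 ratio of CPM in the FGF1 mouse over the vehicle mouse of the same batch (y axis) for each neuropeptide gene (x axis), with 1 point for each of the 5 batches and a line at 0. For Oxt, Avp and Hcrt the batch 3 point, from Day 1 FGF1 replicate 1, lies above 3.7 while all other points lie below 0.

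Whether the response differed between days was tested by the interaction of treatment and day. No peptide and none of 16682 genes was called (0%), with 588 genes at an unadjusted p under 0.05 and no call by DESeq2. The values below an unadjusted p of 0.05, Day 5 minus Day 1, were -7.43 ± 2.37 for Oxt and -4.97 ± 2.16 for Avp, and Vip was at 1.81 ± 0.77, each with an SE and with an edgeR adjusted p of 0.999. Without Day 1 FGF1 replicate 1 they were -3.15, -0.60 and 2.42.

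Single labels were tested next, to see where such differences lay. At Day 1 none of the 57 pairs of a peptide and a label was called, over 16 labels (1.05% of all gene and label pairs), with 9 pairs at an unadjusted p under 0.05 and no call by DESeq2. At Day 5 edgeR called 5 of 57 pairs over 11 labels, all lower after FGF1 (0.288% of all pairs called, 0.211% lower), whereas DESeq2 called 1. In 1 of the 5, Avp in n06.Oxt, the label was the one with the highest mean level of the peptide. Another, Hcrt in n29.Nr5a1/Adcyap1, passed the filter on low counts through the vehicle mice alone.

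Within n06.Oxt, Avp fell at Day 5. It was at 97.3 and 141 CPM in the FGF1 mice and at 852 and 328 CPM in the vehicle mice, without overlap. Of the n06.Oxt nuclei, 0 of 24 and 0 of 42 in the FGF1 mice had 3 or more Avp UMIs, which allow shares of up to 12.5% and 7.14%, against 28 of 50 and 4 of 13 in the vehicle mice. The log2 fold change was -2.40 ± 0.38 (SE, edgeR adjusted p = 0.000201), in a label where 0.103% of 1950 genes were called. The call was lost with DESeq2 (adjusted p = 0.0652) and without vehicle replicate 28, where the log2 fold change was -1.50 (edgeR adjusted p = 0.413). At Day 1 Avp in n06.Oxt was at 25004 and 242 CPM in FGF1 replicates 1 and 2 and at 551, 556 and 675 CPM in the vehicle mice, with FGF1 replicate 3 at 7 nuclei left out of the fit. Its log2 fold change was 4.43 ± 1.93 (SE, edgeR adjusted p = 0.994) and -1.28 without FGF1 replicate 1.

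Oxt in n06.Oxt was not called on either day. At Day 5 it was at 119 and 9.41 CPM after FGF1 and at 1247 and 128 CPM after vehicle, 2 groups without overlap whose log2 fold change was -3.64 ± 1.78 (SE, edgeR adjusted p = 0.953). At Day 1 it was at 9346 and 114 CPM after FGF1 and at 141, 61.1 and 146 CPM after vehicle. Replicate 1 was again far above all others, and the log2 fold change was 5.39 ± 2.02 (SE, edgeR adjusted p = 0.994) with it and 0.02 (edgeR adjusted p = 0.998) without it.

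The other 4 called pairs were peptide RNA in labels other than the one with its highest mean level. Pmch in astrocytes was at 103 and 253 CPM after FGF1 and at 993 and 553 CPM after vehicle (log2 fold change -2.19 ± 0.47, SE, edgeR adjusted p = 0.0323, 53 of 8484 astrocyte genes called). The groups did not overlap. Sst fell in committed oligodendrocyte precursors (COP) by 1.82 ± 0.43 and in Glu5 neurons by 1.89 ± 0.39 on the log2 scale (SE, edgeR adjusted p = 0.0359 and 0.0446, with 1.28% and 0.321% of genes called). COP values were 44.5 and 84.6 CPM after FGF1 and 335 and 83.9 CPM after vehicle, and those of Glu5 were 29.3 and 56.4 CPM and 205 and 42.7 CPM, overlapping in both. Hcrt in n29.Nr5a1/Adcyap1 was at 1.42 and 0.853 CPM after FGF1 and at 31.3 and 13.2 CPM after vehicle. These were 1 UMI in each FGF1 mouse and 27 and 4 UMIs in the vehicle mice. The log2 fold change was -4.33 ± 0.80 (SE, edgeR adjusted p = 0.0196, 0.281% of genes called). The pair passed the filter on low counts through the vehicle mice alone, and a pair that enters in this way can be called only lower. DESeq2 kept the call of Pmch in astrocytes (adjusted p = 0.00346) and lost the other 3. Each call was lost without 1 or more mice: Pmch in astrocytes without FGF1 replicate 37 (-1.65) or 45 (-3.01), Sst in COP without vehicle replicate 28 (-0.24), Sst in Glu5 without vehicle replicate 28 (0.38) or FGF1 replicate 37 (-1.47), and Hcrt in n29.Nr5a1/Adcyap1 without FGF1 replicate 45 (-3.89). In the ventricular glia at Day 5, Pmch was at 263 and 223 CPM after FGF1 and at 1174 and 410 CPM after vehicle, and Hcrt at 4.27 and 3.47 CPM against 190 and 0 CPM. The part of free RNA in these 4 pairs was not tested.

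Sst in its carrier n23.Sst/Unc13c was at 11728, 4540 and 2793 CPM after FGF1 and at 3716, 8340 and 6913 CPM after vehicle at Day 1, overlapping groups with a log2 fold change of 0.04 ± 0.57 (SE, edgeR adjusted p = 0.993). At Day 5 Sst there was at 8012 and 4550 CPM after FGF1 and at 9378 and 11634 CPM after vehicle, without overlap. The higher vehicle value came from 8 nuclei, too few to enter a fit, so no test was run. Vip in n16.Rgs16/Vip had a log2 fold change of -0.51 ± 0.46 at Day 1 and of 0.37 ± 0.40 at Day 5 (SE, edgeR adjusted p = 0.995 and 0.978). Tac1 at Day 1 was at 0.13 ± 0.66 in Glu6 and at -0.90 ± 0.68 in n02.Gm8773/Tac1 (SE, edgeR adjusted p = 0.998 for both).

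**Figure D5:**
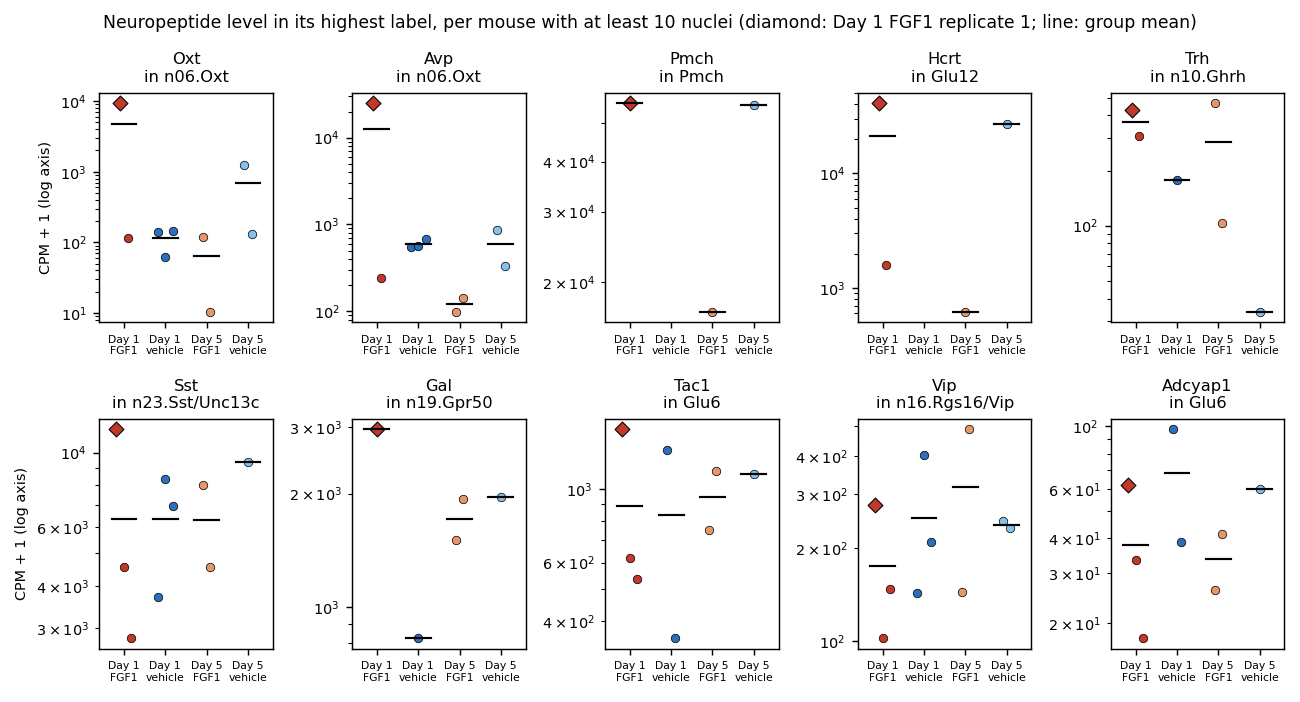
CPM + 1 (log axis) of each neuropeptide gene in its highest label, with 1 point per mouse that has at least 10 nuclei of that label, a line at the group mean and a diamond for Day 1 FGF1 replicate 1. Several groups hold 1 mouse or none, and Avp in n06.Oxt at Day 5, with 2 mice in each group, was at 97.3 and 141 CPM after FGF1 against 852 and 328 CPM after vehicle.

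Hcrt in Glu12, its highest label, varied widely between mice. Counting every mouse whatever its number of nuclei, it was at 41045, 1574 and 456 CPM after FGF1 and at 6158, 22457 and 5936 CPM after vehicle at Day 1. At Day 5 it was at 1290 and 619 CPM after FGF1 and at 26771 and 0 CPM after vehicle, the last from 4 nuclei. No test was run on these 83 nuclei, since a mouse entered a fit with at least 10 nuclei, which no vehicle mouse reached at Day 1 and 1 mouse of each group reached at Day 5. The ranges of FGF1 and vehicle mice overlapped on both days.

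The receptors of the peptides were counted as a list. Of 23 receptor genes 18 were in the table, 11 passed the filter at Day 1 and 13 at Day 5, and none was called. The median log2 fold change was -0.02 at Day 1 and -0.18 at Day 5, against 0.01 and -0.01 over all genes. The highest in neurons were Hcrtr2, a hypocretin receptor (46.9 ± 8.23 CPM, SD, n = 10), Adcyap1r1, the PACAP receptor (31.6 ± 4.74 CPM), Trhr (28.6 ± 5.4 CPM), Sstr2 (16.95 ± 2.87 CPM) and Tacr1 (16.4 ± 3.50 CPM). For Hcrtr2 the 3 FGF1 mice at Day 1 were at 54.2, 53.4 and 53.2 CPM, all above the vehicle mice at 34.4, 39.2 and 41.8 CPM, and the log2 fold change was 0.52 ± 0.17 (SE, edgeR adjusted p = 0.498). Chosen after their values were seen, Hcrtr1, the other hypocretin receptor, was also above all vehicle mice at Day 1, and Vipr2, a receptor of VIP and PACAP, below them, where 5.69% and 8.34% of all genes separated in those directions. At Day 5 the groups of Hcrtr2 overlapped.

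Of 30 other neuropeptide genes 26 were in the table, 21 were tested on each day, and none was called. Their median log2 fold change was 0.07 at Day 1 and -0.41 at Day 5. The highest in neurons were Npy (390 ± 235 CPM, SD, n = 10), Agrp (362 ± 215 CPM), Scg2, a granin of the dense-core vesicles (306 ± 177 CPM), Cartpt (73.8 ± 39.7 CPM) and Nts, which encodes neurotensin (36.9 ± 21.7 CPM). Their summed level was highest in Day 1 FGF1 replicate 1 and next in Day 1 vehicle replicate 2 (2751 and 2382 CPM against 648 to 1584 CPM elsewhere), the mice that were also highest for the 10 peptides.

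Whole cells of the mediobasal hypothalamus gave a separate view at Day 5, from other mice. The authors had removed neurons, so peptide RNA there is what was counted in droplets of other cells and in neurons that escaped removal. Of the 10 genes, 6 passed the filter, Oxt, Avp and Trh fell below it and Vip had no row, and 3 of the 6 were called, all lower after FGF1, against 9.58% of 13723 genes called and 5.01% called lower. Of these 3, Hcrt and Adcyap1 passed the filter only through the vehicle mice, and genes that enter in this way can be called only lower. Tac1 had its lowest, median and highest mouse at 7.86, 10.3 and 23.7 CPM after FGF1 and at 17.3, 25.2 and 32.6 CPM after vehicle (n = 6 each). It fell by 0.99 ± 0.23 on the log2 scale (SE, edgeR adjusted p = 0.0205), with 5 of 6 FGF1 mice below every vehicle mouse.

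Hcrt in whole cells was at 0, 0.905 and 3.01 CPM after FGF1 and at 2.99, 5.10 and 10.6 CPM after vehicle (lowest, median and highest mouse), and 2 FGF1 mice had no Hcrt UMI. Hcrt fell by 2.45 ± 0.62 on the log2 scale (SE, edgeR adjusted p = 0.0259), a gene that passed the filter on low counts only through the vehicle mice. Adcyap1 ran from 1.02 to 4.89 CPM (median 1.69) after FGF1 and from 2.64 to 10.7 CPM (median 5.02) after vehicle, and fell by 1.42 ± 0.40 (SE, edgeR adjusted p = 0.0405). With batch as a term, an alternative chosen after seeing the data, Adcyap1 was no longer called (edgeR adjusted p = 0.113). Pmch, Gal and Sst were at -0.73, -0.54 and -0.28 without a call (edgeR adjusted p = 0.151, 0.257 and 0.663). In FGF1 replicate 7, the highest FGF1 mouse for Pmch (31.2 CPM), 1 cell held 166 of the 262 Pmch UMIs.

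The neuronal content of the whole cells moved in the same direction. The 4 neuron markers summed to 99.9 to 197 CPM after FGF1, against 170 to 372 CPM after vehicle, each of the 4 was lower on average and Syt1 was called (log2 fold change -1.06, edgeR adjusted p = 0.00472). Gad1, Gad2, Slc17a6 and Scg2 were called lower too. The part of this difference in neuronal RNA in the lower Tac1, Hcrt and Adcyap1 was not tested.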

How the data were processed

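Raw UMI counts per gene and barcode were used as the authors deposited them. Per the labels and the study's methods, libraries were made with the 10x Genomics Chromium 3′ v2 kit and aligned with Cell Ranger 1.2 to GRCm38, with introns included for nuclei. The authors kept barcodes by numbers of genes and by percent of mitochondrial and ribosomal UMIs, clustered them in Seurat and gave neurons labels projected from published types. Doublets were removed by a caller in whole cells, and not in nuclei. The deposited table holds more nuclei (24965) than the article counts, and 24011 of them are at or under its 5% limit. The deposited normalized values were not used. The members and all gene lists were chosen with earlier results of these data known.

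Counts were summed per mouse over all neuron nuclei, over each label with at least 10 nuclei in a mouse, and over all whole cells. Groups came from the sample labels (3 against 3 mice at Day 1, 2 against 2 at Day 5, 6 against 6 for whole cells), so p-values measure the spread between mice. Summed neuron UMIs were 2025652 to 11654927 per mouse. Tests used edgeR 4.0.16 (filterByExpr, TMM, quasi-likelihood) with DESeq2 1.42.0 as an alternative, and a gene was called at an adjusted p under 0.05. Both were tested on simulated counts of even spread, without batches or an outlying mouse, in which only well-counted genes were changed. That test does not cover peptides with few UMIs or with mice as uneven as here. CPM was computed from summed counts without further normalization. For shares of nuclei, two-sided exact permutation tests were used, and limits from counts of 0 (3 nuclei over the total) cover counting error only. Alternatives were another normalization, no filter, counts capped at 10 UMIs per nucleus, the 5% limit (20% for whole cells), thinning to 1000 UMIs, leaving out each mouse, and the replicate number or batch as a term. The named genes were the 10 members, receptors and other neuropeptides that were called or otherwise the 5 highest, and the 3 genes most like each member over labels. Day 1 replicate numbers did not pair the mice (correlations of deviations -0.11, -0.00241 and 0.323). Gene positions and promoters are from RefSeq and the GRCm38 annotation, and a promoter was found for all 10 members.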

Additional observations from a re-analysis of the deposited data

Results flagged for a closer look

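In whole cells at Day 5, the Tac1 level of FGF1 replicate 28, 23.7 CPM, stood above those of the other 5 FGF1 mice by a gap of 0.682 of the group's range, and the Avp level of vehicle replicate 35, 1.56 CPM, stood alone above 5 mice at 0. In all, 18 groups of 6 mice were looked at. Chance gives such gaps in about 1 of 20 groups of continuous values, a rate that does not hold for Avp, where any single mouse above 0 gives a gap of the whole range.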

How the results depend on the processing

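With DESeq2 the number of peptides called at Day 5 went from 0 to 1 in all neuron nuclei and from 5 to 1 within single labels, where it called 0.129% of all gene and label pairs. Within single labels, a minimum of 20 nuclei per mouse gave 2 calls at Day 5 (of 26 peptide pairs, with 0.218% of all pairs called), and no filter on low counts gave 12 at Day 5 (of 110, 0.375% of all pairs) and 5 at Day 1 (of 175, 0.537%). With nuclei thinned to 1000 UMIs the share of nuclei was lower after FGF1 for 4 peptides at Day 1, against 7 without thinning. Leaving out 1 mouse at a time gave 0 to 5 calls in all neuron nuclei at Day 5 (0% to 2.95% of all genes), 0 to 1 over both days with batch as a term (0% to 0.289%), 0 to 3 within labels at Day 1 (0.306% to 1.21% of all pairs) and 2 to 27 at Day 5 (0.187% to 2.13%). The 27, of 78 peptide pairs, came without vehicle replicate 38, where calls over all pairs were also the most frequent. The replicate number of Day 1 entered as a replicate block, although the numbers did not pair the mice, and called 0 peptides as without it. It turned the log2 fold changes of Avp to -0.51, of Hcrt to -1.25, of Sst in n23.Sst/Unc13c to -0.25 and of Tac1 in Glu6 to -0.46. Batch as a term turned Avp to -0.57 and Hcrt to -1.57 at Day 1. Changes of sign near 0 were Sst at Day 1 with capped counts (0.00158) and thinned nuclei (0.022), Tac1 at Day 1 without the filter (0.0049) and Gal at Day 5 thinned (-0.10).

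Leaving out 1 mouse at a time, Day 1 log2 fold changes ranged from -1.30 to 3.54 for Oxt, -2.15 to 2.78 for Avp, -0.87 to 0.17 for Sst, -0.96 to 0.80 for Tac1, -1.18 to 0.79 for Trh, -0.10 to 1.33 for Gal, -0.49 to 2.13 for Pmch and -3.47 to 2.40 for Hcrt. At Day 5 they ranged from -0.48 to 0.52 for Tac1, -0.051 to 0.33 for Trh, -0.030 to 0.80 for Vip, -1.14 to 0.47 for Pmch, -5.46 to 0.10 for Hcrt and -0.89 to 1.01 for Adcyap1. Within labels the ranges were -1.28 to 5.37 for Avp in n06.Oxt, -0.84 to 0.39 for Sst in n23.Sst/Unc13c, -1.14 to 0.0067 for Vip in n16.Rgs16/Vip and -0.63 to 1.42 for Tac1 in Glu6 at Day 1, and -0.75 to 1.00 for Vip in n16.Rgs16/Vip and -2.47 to 0.38 for Sst in Glu5 at Day 5. The cause of these changes was not tested.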

Other observations

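Fast transmitter genes were counted in the neuron nuclei with 3 or more UMIs of each peptide, pooled over mice and without a test. Of neuron nuclei with 3 or more Gal UMIs, 68.8% had a UMI of Slc32a1, Gad1 or Gad2, which mark GABAergic neurons, and 14.6% had one of Slc17a6, which marks glutamatergic neurons, and for Vip the shares were 70.0% and 14.2%. All neurons together had 41.9% and 22.0%. Sst nuclei lay on the GABAergic side as well (55.7% and 21.9%), whereas Trh nuclei had the 2 kinds of gene about equally often (34.6% and 35.1%). Median depths were 3136, 3615, 3119 and 3401 UMIs in the Gal, Vip, Sst and Trh nuclei against 2621 in all neurons. For the other 6 peptides the shares with a GABAergic gene ran from 31.2% to 47.0% and those with Slc17a6 from 25.0% to 29.9%. Nuclei with 3 or more UMIs were a larger share of ventricular glia than of neurons for Pmch (11.25% and 1.78%), Oxt (3.75% and 0.706%), Avp (3.15% and 0.948%) and Hcrt (2.59% and 0.469%). For these peptides that cut does not mark carriers. For all others the neuronal share was the larger, for Vip by a small margin.

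The pair of peptides in the largest number of nuclei was Trh and Tac1. Of 604 neuron nuclei with 3 or more Trh UMIs, 101 (16.7%) had 3 or more Tac1 UMIs, against 5.76% of all neurons, and 20 of the 101 were in Day 1 FGF1 replicate 1. Genes with a like pattern were sought over 29 labels, which share libraries. Only genes with a mean of at least 10 CPM in the peptide's highest label were ranked. Those whose log2 levels went most closely with a peptide were Pou3f2, a transcription factor of paraventricular neurons, for Avp (Pearson r = 0.723), Avp for Oxt (0.690), Nms, a suprachiasmatic peptide, for Vip (0.686), Crhr1 for Sst (0.565), Nxph1 for Tac1 (0.661), Mc2r for Pmch (0.861), Trappc6b for Gal (0.832), 2900060B14Rik for Adcyap1 (0.812), BC055324 for Trh (0.718) and Gm14718 for Hcrt (0.708). Each r is the highest of many and was not tested.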
